A study of Mus musculus with 4 samples.

Results

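Clusters of neighbouring H3K27ac regions were described in dystrophic mouse hearts. The regions of both genotypes on chromosomes 1 to 19 were pooled, overlapping regions were merged, and merged regions separated by gaps up to a fixed limit were chained, the widest gap joined being 12499 bp and the narrowest not joined 12503 bp. A chain of 3 or more merged regions was called a cluster. Of 35076 merged regions, 6034 (17.2%, 95% interval 16.8 to 17.6, Wilson) were in 1673 clusters, 8226 were in chains of 2 and 20816 stood alone. The members were chosen by the measured positions of the regions, so that the number of clusters, their lengths and their gaps are a description. Intervals on shares here count regions, genes or clusters and cover counting error only.

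Whole hearts of mdx mice aged 7 months, a strain without dystrophin, were used for H3K27ac ChIP-seq. Both genotypes carried floxed IKKβ alleles on the mdx background. The mdx HRTΔIKKβ heart (Myh6-cre;IKKβΔ) also carried cre driven by the alpha myosin heavy chain promoter, which is active in cardiomyocytes, and the mdx IKKβf/f heart came from an age-matched littermate without cre. Each genotype had 1 ChIP library and 1 input library, so that no difference between the genotypes has a replicate check and none was tested. Cells other than cardiomyocytes kept their IKKβ and contributed chromatin to both libraries. Each deposited region has a tag count normalized to 10000000 tags, the number of tags of the matched input in the same stretch, a fold over input after scaling for depth, and a caller's score.

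Acetylation of lysine 27 of histone H3 marks active promoters and active enhancers. Enhancers that lie close together along a chromosome are often described as a group, since such groups are known near genes that define a cell type. IKKβ is the kinase that frees NF-κB to enter the nucleus, and NF-κB recruits both activators and deacetylase-containing repressors to chromatin. Calcium entry through voltage-gated channels starts each heartbeat, and calcium handling is disturbed in dystrophic cardiomyocytes.

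As examples of DNA in clusters, 300 bases are given around the centre of the highest-scoring region of each of the 6 clusters with the most merged regions. They are the plus strand of mm9, 5′ to 3′, with each CpG dinucleotide in capitals, since clustered and lone regions differed in GC content.
Grik3 cluster, chr4:125224255-125224554: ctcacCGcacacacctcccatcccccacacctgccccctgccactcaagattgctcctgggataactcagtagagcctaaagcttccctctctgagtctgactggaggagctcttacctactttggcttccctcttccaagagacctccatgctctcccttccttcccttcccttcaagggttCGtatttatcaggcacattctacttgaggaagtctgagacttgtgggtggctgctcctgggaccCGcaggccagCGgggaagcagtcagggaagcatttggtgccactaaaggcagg
Bpifb6 cluster, chr2:153729733-153730032: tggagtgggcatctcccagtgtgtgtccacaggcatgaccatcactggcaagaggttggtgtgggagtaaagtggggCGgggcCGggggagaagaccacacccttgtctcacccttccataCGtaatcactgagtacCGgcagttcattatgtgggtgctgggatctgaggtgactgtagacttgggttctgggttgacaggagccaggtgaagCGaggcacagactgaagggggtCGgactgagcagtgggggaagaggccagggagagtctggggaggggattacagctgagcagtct
Dscaml1 cluster, chr9:45479062-45479361: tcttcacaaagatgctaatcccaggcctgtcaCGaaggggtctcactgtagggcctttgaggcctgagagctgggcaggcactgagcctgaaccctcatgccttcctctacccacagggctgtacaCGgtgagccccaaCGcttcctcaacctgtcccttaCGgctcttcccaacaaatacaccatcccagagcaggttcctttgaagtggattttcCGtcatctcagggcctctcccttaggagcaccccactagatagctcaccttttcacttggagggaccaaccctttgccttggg
Aqp12 and Kif1a cluster, chr1:94903142-94903441: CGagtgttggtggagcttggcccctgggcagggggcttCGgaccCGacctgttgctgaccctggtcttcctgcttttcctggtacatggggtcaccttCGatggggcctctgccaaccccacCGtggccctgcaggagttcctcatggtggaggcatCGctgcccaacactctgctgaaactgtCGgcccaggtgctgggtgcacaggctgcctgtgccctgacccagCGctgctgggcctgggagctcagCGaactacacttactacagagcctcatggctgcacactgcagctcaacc
Rbm19 cluster, chr5:120656314-120656613: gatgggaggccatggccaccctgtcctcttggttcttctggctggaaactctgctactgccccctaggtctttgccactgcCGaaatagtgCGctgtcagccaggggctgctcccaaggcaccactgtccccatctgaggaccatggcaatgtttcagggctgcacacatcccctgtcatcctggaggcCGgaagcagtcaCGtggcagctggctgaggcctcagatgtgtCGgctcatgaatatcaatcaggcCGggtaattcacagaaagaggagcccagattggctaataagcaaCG
Jph3 cluster, chr8:124262011-124262310: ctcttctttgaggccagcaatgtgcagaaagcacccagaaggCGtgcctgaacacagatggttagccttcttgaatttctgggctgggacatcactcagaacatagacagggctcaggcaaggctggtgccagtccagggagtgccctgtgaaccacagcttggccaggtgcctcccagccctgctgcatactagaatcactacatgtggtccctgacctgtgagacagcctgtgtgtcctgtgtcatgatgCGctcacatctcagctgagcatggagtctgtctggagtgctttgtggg
These 300-base stretches held 4, 6, 5, 9, 7 and 2 CpGs in the order shown. The Aqp12 sequence, in the promoter window of Aqp12, had the most, with a GC content of 63.3%, and the others lay in introns except that of the Rbm19 cluster, which was intergenic.

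The largest cluster spanned 72.8 kb and held 16 merged regions at Grik3, a kainate-type glutamate receptor subunit. It began 8.41 kb before the Grik3 start and ran into the gene's introns (chr4:125159533-125232291, mm9). Of its regions, 7 came from mdx IKKβf/f and 9 from mdx HRTΔIKKβ, and none overlapped a region of the other genotype. The mdx IKKβf/f regions held 6.40, 6.40, 5.19, 5.70, 6.05, 8.12 and 5.70 normalized tags per 10000000 in order along the chromosome. The mdx HRTΔIKKβ regions held 5.12, 5.44, 6.08, 6.08, 7.04, 4.96, 5.92, 6.72 and 6.24. The regions of the genotypes were interspersed over the whole length of the cluster and their tag counts overlapped.

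**Figure D1:**
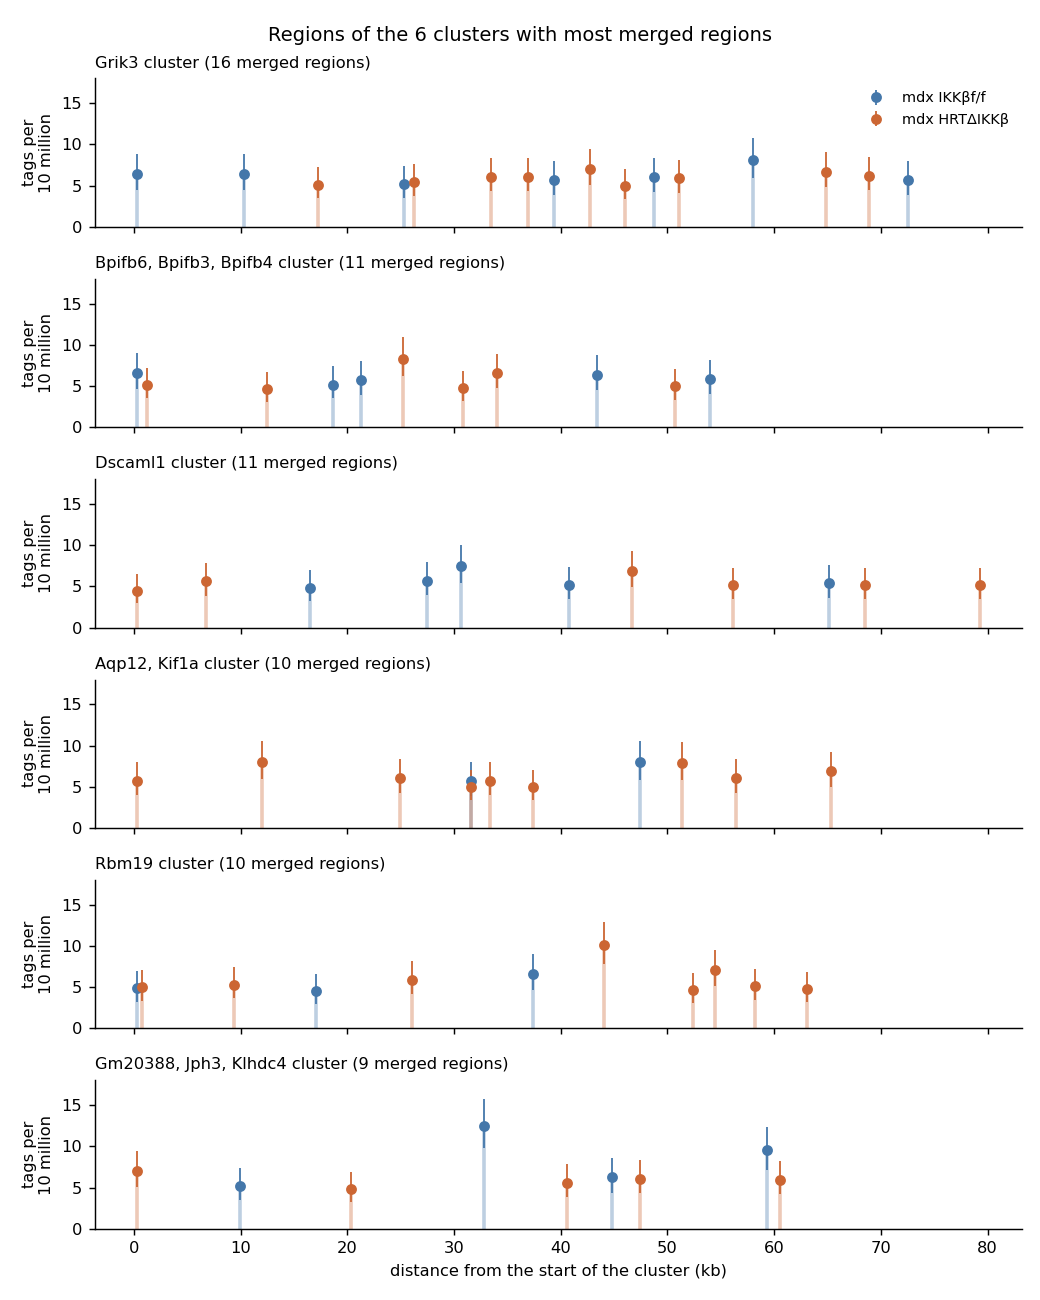
Normalized tags per 10000000 (y axis) of each called region against the distance of its centre from the cluster's start in kb (x axis), for the 6 clusters with most merged regions; points are single regions of the mdx IKKβf/f (blue) or mdx HRTΔIKKβ (orange) list, and bars are 95% Poisson intervals of the tag count. Every panel holds regions of both genotypes, at between 4.48 and 12.4 tags per 10000000.

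A pair of clusters held 11 merged regions each. One, 54.3 kb long, covered Bpifb6, Bpifb3 and Bpifb4 (chr2:153729632-153783953), neighbouring genes of a family of secreted lipid-binding proteins, with 5 mdx IKKβf/f regions at 5.19 to 6.57 normalized tags and 6 mdx HRTΔIKKβ regions at 4.64 to 8.33. The other, 79.6 kb long and thus the longest of all, overlapped Dscaml1, a cell adhesion molecule of neurons (chr9:45432582-45512153), with 5 mdx IKKβf/f regions at 4.84 to 7.43 and 6 mdx HRTΔIKKβ regions at 4.48 to 6.88. All 11 regions of the Dscaml1 cluster were intronic. In both loci the tag ranges of the genotypes overlapped.

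Clusters of 10 merged regions stood at Aqp12 and Kif1a and at Rbm19. The first (chr1:94891303-94956949) began before Aqp12 and ran over its promoter into Kif1a, a kinesin that carries vesicles along axons, with 2 mdx IKKβf/f and 9 mdx HRTΔIKKβ regions. The second (chr5:120612373-120675717) lay in the last part of Rbm19, a nucleolar RNA-binding protein, and in the intergenic sequence beside it, with 3 mdx IKKβf/f and 8 mdx HRTΔIKKβ regions. Its intergenic region of 755 bp held 10.1 normalized tags in mdx HRTΔIKKβ at a score of 47, which was the highest of that cluster, with 9 input tags and a fold over input of 4. That fold was at the caller's minimum, and the number of input tags was the highest of the cluster.

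The next clusters by number of regions were at genes of varied function. A cluster of 9 regions covered Jph3, a junctophilin that ties the plasma membrane to the endoplasmic reticulum, and Klhdc4 (chr8:124261910-124322700), with 4 mdx IKKβf/f and 5 mdx HRTΔIKKβ regions in strict alternation. It held the region with the most normalized tags of the 6 largest clusters, 12.4 in mdx IKKβf/f over a width of 1039 bp. That count is per region and not per kb. The region's score of 37 was below the 46 of a 500 bp mdx HRTΔIKKβ region in the same cluster. The other clusters of 9 regions were in introns of Pax5, a B-cell transcription factor (3 mdx IKKβf/f and 6 mdx HRTΔIKKβ regions), at Wdr25 and Begain (2 and 7), at St8sia5, a sialyltransferase gene on chromosome 18 (4 and 5), and in a stretch of chromosome 4 without a protein-coding gene (6 and 3).

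A cluster of 8 merged regions covered Kbtbd5, Hhatl and Ccdc13 (chr9:121685066-121729631). Kbtbd5, also named Klhl40, encodes a kelch protein of striated muscle that stabilizes thin filament proteins. The region 1.41 kb from the Kbtbd5 start had 5.19 normalized tags in mdx IKKβf/f, and the next, 1.24 kb from the nearest protein-coding start, had 5.76 in mdx HRTΔIKKβ. At the Hhatl promoter the lists overlapped, with 6.05 normalized tags in the mdx IKKβf/f heart and 4.80 in the mdx HRTΔIKKβ heart. The regions in and near Ccdc13 were called in mdx IKKβf/f at 5.88 to 7.95, and the last region of the cluster was called in mdx HRTΔIKKβ at 5.12. The remaining cluster among these 12, with 8 merged regions, lay 4.76 kb from the nearest protein-coding start on chromosome 5 (6 mdx IKKβf/f and 3 mdx HRTΔIKKβ regions).

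Most clusters were small. There were 1076 clusters of 3 merged regions, 359 of 4, 142 of 5 and 96 of 6 or more. The median span was 15.7 kb, with a range of 2.46 to 79.6 kb, and all clusters together covered 28.7 Mb, or 1.2% of the assembled autosomes. The median gap inside a cluster was 5581 bp, with quartiles of 2721 and 8820 bp, whereas the median gap between all neighbouring merged regions was 35900 bp. At the limit of the rule, 244 gaps were within 500 bp below it and 284 within 500 bp above it, and 137 clusters held at least 1 of the former. The limit thus lay within a continuous range of spacings.

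**Figure D2:**
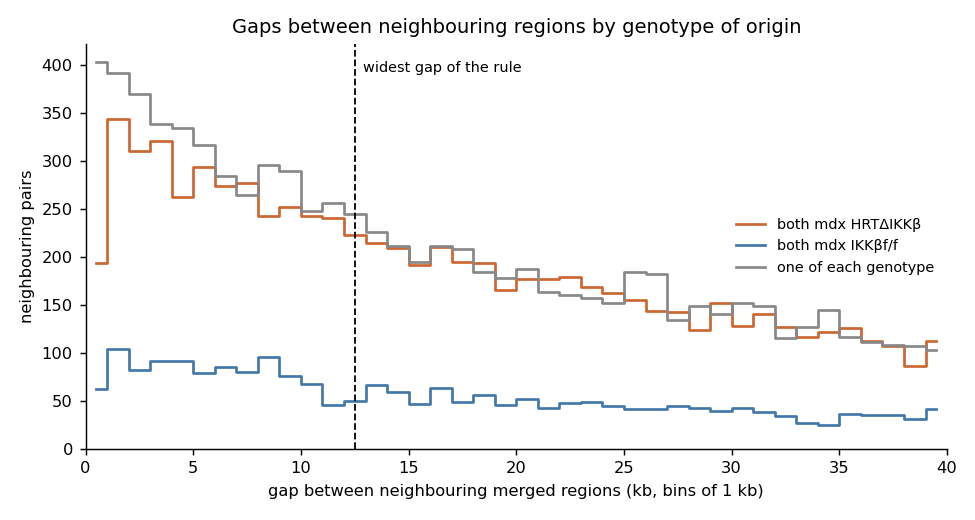
Number of neighbouring pairs of merged regions (y axis) by the gap between them in bins of 1 kb (x axis), for pairs of which both are mdx HRTΔIKKβ regions (orange), both are mdx IKKβf/f regions (blue) or one is of each genotype (grey); pairs with a region shared by the lists are left out and the dashed line marks the widest gap chained. Gaps are found in every bin on both sides of the line, and under 1 kb the pairs of one genotype are fewer, 194 and 62, than the 403 pairs of mixed genotype.

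Most clusters held regions of both genotypes. Of 1673 clusters, 1289 (77.0%, 75 to 79) held both, 341 held mdx HRTΔIKKβ regions only and 43 held mdx IKKβf/f regions only. Both were present in 71.9% of clusters of 3, 81.3% of clusters of 4 and 93.7% of clusters of 5 or more, a share that must rise with the number of regions drawn from the lists. The mdx HRTΔIKKβ list held 64.7% of all autosomal regions before merging, 63.6% (62.4 to 64.8) of those in clusters, 64.4% of those in chains of 2 and 65.1% of those alone. Clustered regions thus came from the genotypes in nearly the ratio of the lists themselves. Put the other way, 17.8% (17.1 to 18.4) of mdx IKKβf/f regions and 17.0% (16.5 to 17.5) of mdx HRTΔIKKβ regions were in clusters, a difference of under 1 percentage point between single libraries.

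**Figure D3:**
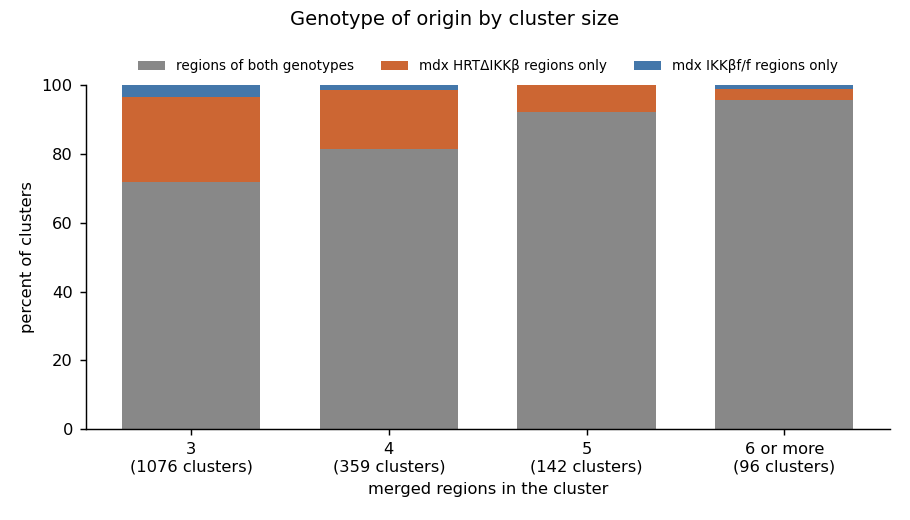
Percent of clusters (y axis) that held regions of both genotypes (grey), of mdx HRTΔIKKβ only (orange) or of mdx IKKβf/f only (blue), by the number of merged regions in the cluster (x axis, with the number of clusters). The grey share is 71.9% for 3 regions and 95.8% for 6 or more, and clusters of mdx IKKβf/f regions only number 43 in all.

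Along the clusters the genotypes were mixed rather than in blocks. Of neighbouring regions inside clusters with a single genotype each, 47.3% (45.8 to 48.8) were one of each genotype, against 45.1% (44.5 to 45.7) of neighbours farther apart than the limit. The excess came from the shortest gaps: under 1000 bp, 63.9% of neighbours were of different genotype, and over the wider gaps inside clusters 45.8% (44.2 to 47.3) were. The caller kept regions of one list at least 1000 bp apart, measured between centres, and the smallest gap between regions of the same genotype was 503 bp. Adjacent regions of different lists under that distance can therefore occur where adjacent regions of the same list cannot.

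Regions called in both hearts were rare inside clusters, as elsewhere. An overlap of at least 1 bp between the lists occurred in 87 of 6034 clustered merged regions (1.44%, 1.17 to 1.77) and in 312 of 29042 others (1.07%, 0.962 to 1.2). They were spread over 83 clusters. In the 87 shared regions the median log2 ratio of normalized tags per kb, mdx HRTΔIKKβ over mdx IKKβf/f, was -0.02, with a range of -0.68 to 0.78, and 39 of 87 were higher in mdx HRTΔIKKβ. A cluster with regions of both genotypes was thus, in most cases, one where neighbouring but different stretches had passed the caller in each heart. The lists give no tag count for a region in the heart where it was not called, so that a region of one list alone is not shown to be absent in the other.

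Only 4 clusters held 2 regions shared by the lists. One covered Ush1c and Otog, which encode proteins of the inner ear (chr7:53491354-53504685). Its region at the Ush1c promoter held 6.74 normalized tags in the mdx IKKβf/f heart and 6.08 in the mdx HRTΔIKKβ heart, and its region in Otog held 8.47 in 625 bp and 5.44 in 500 bp. The counts in this paragraph are per region and not per kb. Another was far from genes on chromosome 8, 171 kb from the nearest protein-coding start (chr8:12012674-12042091). There one shared region held 5.53 normalized tags in 500 bp in the mdx IKKβf/f heart and 11.0 in 627 bp in the mdx HRTΔIKKβ heart. The latter was the highest value of that cluster, and the second shared region held 5.36 and 5.12. The direction of the difference was not the same at these sites.

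Clusters of a single genotype held at most 8 merged regions. Among clusters of mdx IKKβf/f regions only, the largest held 6 regions in an intergenic stretch 17.3 kb from the nearest protein-coding start, that of A230072I06Rik (chr8:12233645-12261540), at 8.99, 5.36, 6.40, 4.84, 6.22 and 4.84 normalized tags. It lay on the same chromosome as the cluster with 2 shared regions just described. Of the 5 with 4 regions each, those named by the rule were at Myh14, a non-muscle myosin heavy chain, at Kcng3, a modifier subunit of potassium channels, and in 2 intergenic stretches. The Myh14 cluster (chr7:51861077-51888077) had a region at the promoter, 0.328 kb from the start, with 5.53 normalized tags, and others with 5.53, 7.09 and 7.95 in exons and an intron.

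Among clusters of mdx HRTΔIKKβ regions only, the largest held 8 regions at and beyond Med27, a subunit of the Mediator complex (chr2:29368671-29433576), at 4.48 to 7.20 normalized tags. Others held 7 regions in an intergenic stretch of chromosome 1, 6 at Alx4, a homeobox factor, and 5 in an intergenic stretch of chromosome 7.

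The regions in clusters had hardly higher values than lone regions. The median normalized tag count in mdx IKKβf/f was 5.36 in clusters and 5.36 for lone regions, and in mdx HRTΔIKKβ it was 5.12 and 5.12. The median fold over input was 5.09 in clusters and 5.16 for lone regions in the mdx IKKβf/f heart and 5 and 5 in the mdx HRTΔIKKβ heart. The mean score was 32.7 and 32.1 in the mdx IKKβf/f heart and 34.0 and 33.3 in the mdx HRTΔIKKβ heart. Regions wider than the minimum of 500 bp made up 15.9% (14.4 to 17.5) of clustered and 13.2% (12.48 to 14.0) of lone regions in mdx IKKβf/f, and 18.1% (16.9 to 19.3) and 15.3% (14.7 to 15.9) in mdx HRTΔIKKβ. The most normalized tags in a clustered region, whatever its width, were 14.9 in the mdx IKKβf/f heart and 17.0 in the mdx HRTΔIKKβ heart.

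Most clustered regions were close to the threshold of the caller. The headers give a tag threshold of 29 in the mdx IKKβf/f heart and 30 in the mdx HRTΔIKKβ heart, which were also the lowest scores of the lists. Library totals were 57852347 and 62458751 tags, for which the headers give 14.5 and 15.6 tags expected per 500 bp. The normalized tag count of a region can correspond to fewer tags than the threshold. A region of the Rbm19 cluster had 26 tags at a score of 29 in mdx IKKβf/f. Scores under 1.2 times the lowest of their list were found for 76.2% (74.4 to 77.9) of clustered and 81.3% (80.4 to 82.2) of lone regions in mdx IKKβf/f, and for 73.2% (71.8 to 74.6) and 79.3% (78.6 to 79.9) in mdx HRTΔIKKβ. A fold over input of 8 or more was reached by 13.2% (11.9 to 14.7) of clustered and 15.7% (14.9 to 16.5) of lone regions in mdx IKKβf/f, and by 19.8% (18.6 to 21.1) and 20.9% (20.2 to 21.6) in mdx HRTΔIKKβ. The header of the mdx HRTΔIKKβ list gives an approximate IP efficiency of 1.26% and that of the mdx IKKβf/f list 0.71%. With 1 library each, efficiency and genotype cannot be told apart in any count of regions.

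The GC content of clustered regions was higher than that of lone regions, and it was not used by the rule. In the 500 bases around the region centre the median was 47.0% (quartiles 43.4 and 50.6) for lone regions, 48.4% for chains of 2, 49.6% (46.4 and 53.0) for clusters and 51.4% for clusters of 6 or more. Tiles of 500 bp over the same chromosomes had a median of 41.8%. Of merged regions under 40% GC, 7.11% (6.16 to 8.20) were in clusters, and of those at 55% or more 26.6% (25.1 to 28.1) were. The share rose at each step between these bands. The part of GC-dependent recovery of DNA in this was not tested.

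**Figure D4:**
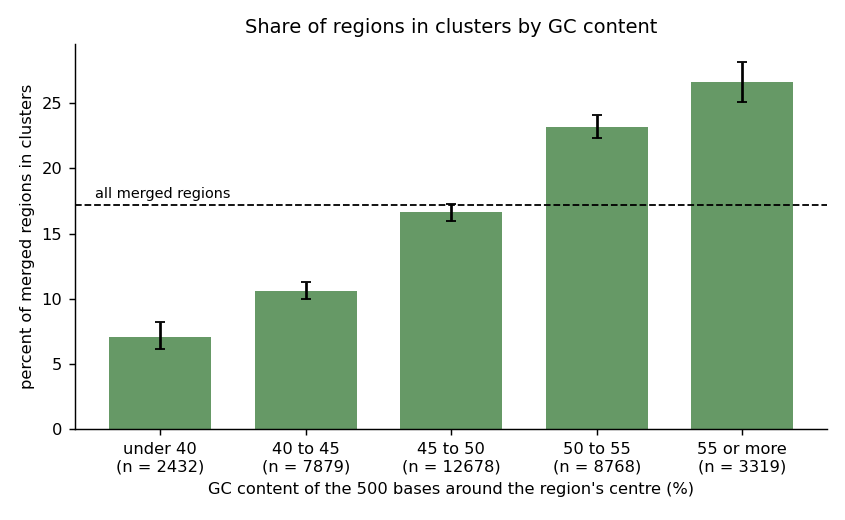
Percent of merged regions that were in clusters (y axis) by the GC content of the 500 bases around the region's centre (x axis, with the number of regions); bars are 95% Wilson intervals and the dashed line is the share of all merged regions, 17.2%. The share rises from 7.11% in the lowest band to 26.6% in the highest.

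Within each GC band the scores of clustered and lone regions were close. At 50 to 55% GC the mean score was 34.4 in clusters and 34.1 alone in mdx HRTΔIKKβ, and 33.0 and 32.9 in mdx IKKβf/f. At 55% GC or more it was 35.8 and 35.4 in mdx HRTΔIKKβ and 34.1 and 33.6 in mdx IKKβf/f. Under 40% GC it was 32.6 and 31.9 in mdx HRTΔIKKβ, no closer than the 34.0 and 33.3 without bands, and 30.9 and 30.9 in mdx IKKβf/f. Scores rose with GC content in both classes and in both hearts.

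Short sequence motifs were counted on both strands of the same 500 bases. A GC box, GGGCGG, was present in 8.53% (7.86 to 9.27) of clustered, 6.09% (5.77 to 6.42) of lone and 6.98% of all merged regions, and among regions of 45 to 55% GC in 7.08% and 6.36%, with overlapping intervals. The CACCC box, which Krüppel-like factors bind, was in 74.1% of clustered, 66.1% of lone and 68.4% of all regions, and at 45 to 55% GC in 76.7% (75.4 to 77.9) and 72.3% (71.5 to 73.1). CCCTC, the core letters of the CTCF motif, was in 77.2%, 71.2% and 72.9%, and at 45 to 55% GC in 78.9% (77.7 to 80.2) and 78% (77.2 to 78.7). CACCC and CCCTC are 5 letters long and are frequent in any sequence of this GC content. The motifs differed less between clustered and lone regions once GC content was held alike.

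The longer NF-κB motif was found in 6.23% (5.65 to 6.87) of clustered, 4.96% (4.68 to 5.27) of lone and 5.33% of all merged regions, and at 45 to 55% GC in 6.35% (5.65 to 7.14) and 5.53% (5.14 to 5.95). The letters AGATAA of the GATA motif went the other way, in 19.2% of clustered, 23.1% of lone and 21.8% of all regions, and at 45 to 55% GC in 18.8% (17.6 to 20) and 20.1% (19.4 to 20.8). CATTCC, the letters of the TEAD motif, was in 27.2%, 27.4% and 27.1%. The AP-1 letters TGANTCA were in 13.5%, 14.7% and 14.2%. The MEF2 motif was in 1.77% (1.47 to 2.14) of clustered, 2.62% (2.41 to 2.84) of lone and 2.39% of all regions. At 45 to 55% GC the MEF2 motif was in 1.45% (1.13 to 1.86) of clustered and 1.64% (1.43 to 1.88) of lone regions, with overlapping intervals. Motif letters describe the windows and show no binding.

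Clustered regions lay slightly nearer to genes. Their median distance to the nearest annotated start was 22.2 kb, against 28.3 kb for lone regions. By the centre of the region, 12.8% (12 to 13.7) of clustered regions were within 3 kb of a start, 4.21% were in exons, 37.1% (35.9 to 38.3) in introns and 45.8% (44.6 to 47.1) between genes. For lone regions these were 11.4%, 3.15%, 32.7% (32.0 to 33.3) and 52.7% (52.1 to 53.4). In clusters of 6 or more the intronic share was 44.2% (40.5 to 48.1). The difference between clustered and lone regions was thus mainly more introns and less intergenic sequence, and less a difference in promoters.

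The clusters followed the density of regions along the chromosomes. Chromosome 5 had 1.05 clusters per Mb, chromosome 11 had 1.02, chromosome 7 had 0.959 and chromosome 4 had 0.955, whereas chromosome 18 had 0.388 and chromosome 3 had 0.396. The share of merged regions in clusters was between 22.9% on chromosome 5 and 10.7% on chromosome 3. Over the 19 chromosomes the Spearman correlation of clusters per Mb with merged regions per Mb was 0.975, as a description of the same libraries.

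Of 1673 clusters, 960 (57.4%, 55 to 59.7) overlapped a protein-coding gene, and 627 overlapped no annotated gene of any kind. There were 599 clusters (35.8%) wholly inside 1 gene, 362 (21.6%) that held a protein-coding start and 131 with 2 or more protein-coding genes. The 713 clusters without a protein-coding gene were a median of 83.6 kb from the nearest protein-coding start. The farthest, with 4 merged regions on chromosome 1 (chr1:104351853-104372766), was 2292 kb away.

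Of 21418 protein-coding genes, 972 (4.54%) were overlapped by a cluster, and the share rose with gene length. It was 7.73% (6.71 to 8.88) for genes of 50 to 100 kb, 9.77% for 100 to 200 kb, 17.3% (14.5 to 20.5) for 200 to 400 kb and 29.6% (24.8 to 35) for genes of 400 kb or more. Among the 5356 shortest genes, with a median length of 1.5 kb, it was 1.31%. Long genes offer more positions to a cluster, so that counts of genes are read beside their lengths.

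The genes with the most clustered regions in their bodies were long. Leaving aside Gm20388, a read-through model of 4435 kb on chromosome 8 that spans many other genes and held 39, they were Csmd2 (24 regions in 580 kb), Sdk1 (22 in 974 kb), Grik3 (21 in 223 kb), Dlgap2 (20 in 752 kb), Shank2 (20 in 423 kb), Dab1 (19 in 1125 kb), Dscaml1 (19 in 326 kb), Tmem132d (18 in 675 kb) and Dpp6 (16 in 910 kb). Shank2 and Dlgap2 encode scaffolds of the postsynaptic density, Sdk1 and Dscaml1 adhesion molecules of synapses, Dab1 an adaptor of the Reelin pathway and Dpp6 an accessory subunit of Kv4 potassium channels. Per length, Grik3 stood first among the 10, with 11.2 merged regions of any class per 100 kb, followed by Dscaml1 with 8.28, Shank2 with 6.63 and Csmd2 with 6.04. Over all protein-coding genes the density was 1.65 per 100 kb. The 10 genes were chosen for their number of clustered regions, so that their higher density is in part set by that choice.

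In these genes the regions again came from both hearts. Csmd2 held 10 mdx IKKβf/f and 14 mdx HRTΔIKKβ clustered regions, Sdk1 held 7 and 15, Shank2 held 6 and 15, and Dab1 held 4 and 15. Grik3 held 9 and 12, Dscaml1 8 and 11, Dlgap2 8 and 12, and Dpp6 7 and 9. Tmem132d held more mdx IKKβf/f regions, 11 beside 7 mdx HRTΔIKKβ regions. All clusters together held 2228 mdx IKKβf/f and 3893 mdx HRTΔIKKβ regions, so that more mdx HRTΔIKKβ regions in a gene follow from the longer list.

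Gene lists for the tissue and the pathway were read against the 4.54% of all protein-coding genes. The lists were drawn with results of these data known, and their counts are a description. Among the voltage-gated calcium channels, which let calcium into the cell on depolarization, 8 of 17 (47.1%, 26.2 to 69.0) were overlapped by a cluster. Their median length of 159 kb falls in the class of 100 to 200 kb, of which 9.77% were overlapped. The overlapped channels spread over the length classes. Cacna2d3 (817 kb) and Cacna1c (604 kb) fall in that of 400 kb or more (29.6%), and Cacna1a (252 kb) in that of 200 to 400 kb (17.3%). Cacna1g (65.7 kb) and Cacna1h (59.5 kb) fall in that of 50 to 100 kb (7.73%). The list held 1.05 clustered regions per 100 kb, against 0.314 over all protein-coding genes and 0.275 over those of 100 kb or more. Counted over merged regions of any class, it held 2.69 per 100 kb against 1.65 over all protein-coding genes.

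Cacna2d3, an auxiliary α2δ subunit 817 kb long, held 14 clustered regions in 3 clusters, 3 from mdx IKKβf/f and 11 from mdx HRTΔIKKβ. Cacna1c, the pore of the cardiac L-type channel, held 8 in 2 clusters. Its first cluster consisted of 3 mdx HRTΔIKKβ regions, at 4.80, 5.12 and 4.64 normalized tags. Its second held 1 mdx IKKβf/f region at 7.61 and 4 mdx HRTΔIKKβ regions at 4.96, 7.52, 4.96 and 4.48, one of which began just beyond the end of the mdx IKKβf/f region. All 8 were intronic.

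The T-type channels, which open at lower voltage, had a cluster each. Cacna1g held 4 mdx HRTΔIKKβ regions at 5.12, 4.48, 5.12 and 4.96 normalized tags and 1 mdx IKKβf/f region at 6.74. Of these, 3 were within 3 kb of an annotated start inside the gene, and none was that close to the gene's outermost start. Cacna1h held 2 mdx HRTΔIKKβ regions of a cluster of 3, at 5.28 and at 9.13 normalized tags, the latter by the start of the neighbouring Tpsg1. Cacna1i held 3 mdx HRTΔIKKβ regions at 7.04, 6.88 and 4.80 and 2 mdx IKKβf/f regions at 5.01 and 5.01. Cacna1a, Cacna1b and Cacna2d2 completed the list, with 5, 3 and 3 clustered regions. Over the 8 channels 10 clustered regions came from mdx IKKβf/f and 35 from mdx HRTΔIKKβ, beside 2228 and 3893 in all clusters.

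Smaller shares of the other calcium handling genes were in clusters. Of the genes for calcium release, uptake and exchange, 3 of 28 (10.7%) were overlapped: Atp2b2, a plasma membrane calcium pump, with 11 regions in 3 clusters (5 mdx IKKβf/f and 6 mdx HRTΔIKKβ), and Itpr3 and Ryr3, intracellular calcium release channels, with 3 each. The Itpr3 regions were all of mdx HRTΔIKKβ, at 5.44, 6.72 and 6.88 normalized tags. Of the calcium signalling kinases and phosphatases, 3 of 25 (12%) were overlapped: Camk2b with 7 regions, Camk1g with 4 and Camkk1 with 2. The median lengths of these lists, 99.3 and 59.2 kb, fall in the class of 50 to 100 kb, of which 7.73% were overlapped. In Camk1g, a gene of 24.0 kb, a region within 3 kb of an annotated start inside the gene was shared by the lists, with 5.19 normalized tags in the mdx IKKβf/f heart and 5.12 in the mdx HRTΔIKKβ heart. The widest region there, of 1139 bp, held 12.8 in mdx HRTΔIKKβ.

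Of the potassium and sodium channels of the heart, 3 of 25 (12%) were overlapped. Kcnq1, the slow delayed rectifier, held regions at 4.84 normalized tags in the mdx IKKβf/f heart and 4.80 and 4.80 in the mdx HRTΔIKKβ heart. The first of these and one of the latter lay near an annotated start inside the gene, and not near its outermost start. Abcc8, a regulatory subunit of ATP-sensitive potassium channels, held 3 merged regions, of which one was shared by the lists (6.74 in the mdx IKKβf/f heart and 7.04 in the mdx HRTΔIKKβ heart). In both of these channel genes the cluster held regions of both hearts.

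The contractile and structural genes gave small counts. Of 30 sarcomere and Z-disc genes, 2 (6.67%) were overlapped, among them Nebl, nebulette, by 3 mdx HRTΔIKKβ regions at 5.12, 4.96 and 7.04 normalized tags. Of 19 genes of the dystrophin-associated complex, 1 was overlapped: Nos1, the neuronal nitric oxide synthase that binds syntrophin, with 2 mdx IKKβf/f and 4 mdx HRTΔIKKβ regions. Of 30 cardiac transcription factors, 1 was overlapped: Tbx5, with 2 mdx IKKβf/f regions at 5.01 and 5.88 in its body. The whole cluster there held 3 mdx IKKβf/f regions and 1 mdx HRTΔIKKβ region. These shares lie near the 4.54% of all protein-coding genes.

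**Figure D5:**
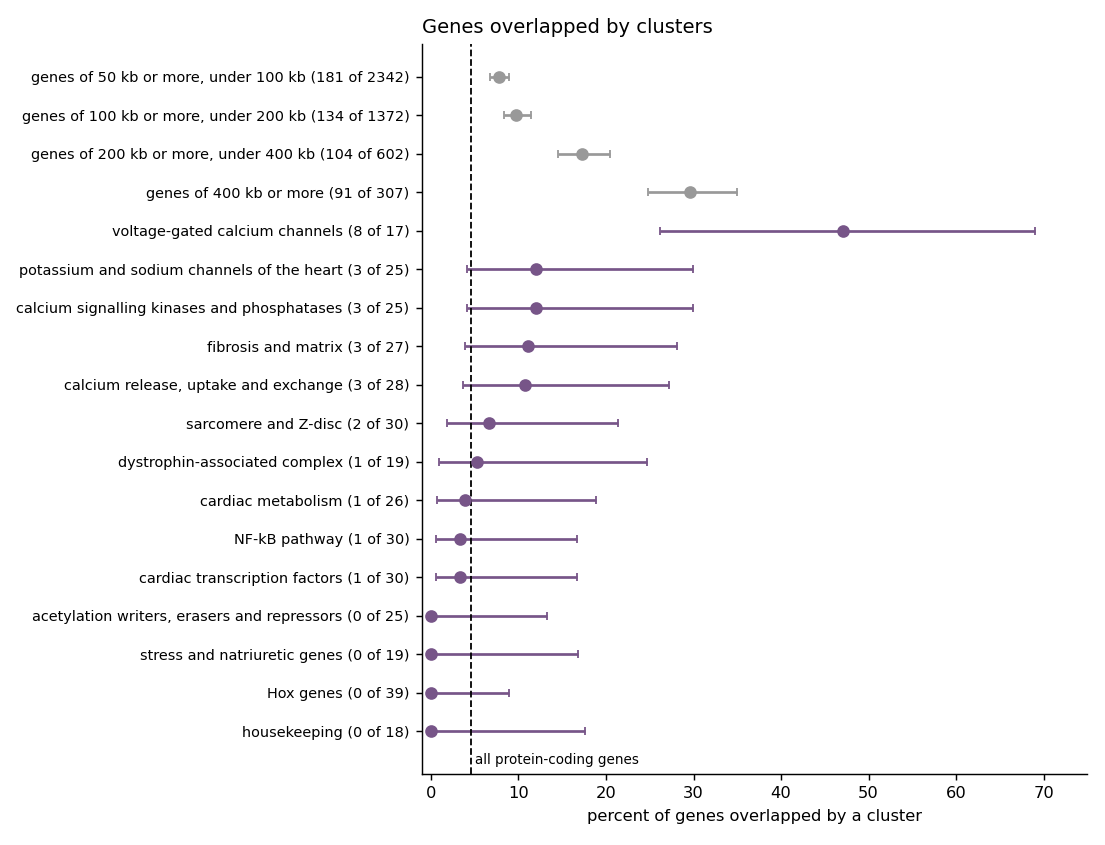
Percent of protein-coding genes whose body a cluster overlapped (x axis), for classes of gene length (grey) and for the gene lists with 15 or more matched genes (purple); points are shares with their counts, bars 95% Wilson intervals, and the dashed line the 4.54% of all protein-coding genes. The length classes rise from 7.73% to 29.6%, the voltage-gated calcium channels stand at 47.1%, and the intervals of the other lists span the dashed line.

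For the NF-κB pathway, 1 of 30 genes (3.33%) was overlapped: Traf2, an adaptor of TNF receptor signalling, with 2 mdx HRTΔIKKβ regions at 4.96 and 6.56 normalized tags in its body. The whole cluster there held 2 mdx IKKβf/f and 4 mdx HRTΔIKKβ regions. Of the fibrosis and matrix genes 3 of 27 (11.1%) were overlapped: Col14a1, Mmp2 and Col6a2. Mmp2, a gelatinase, held a promoter region at 5.12 in mdx HRTΔIKKβ, a shared intronic region at 7.09 in the mdx IKKβf/f heart and 4.80 in the mdx HRTΔIKKβ heart, and an intronic region at 4.80 in mdx HRTΔIKKβ. Of 26 genes of cardiac metabolism, Ucp3, a mitochondrial uncoupling protein, was overlapped. None was overlapped of 25 writers, erasers and repressors of acetylation, of 19 stress and natriuretic genes, of 18 housekeeping genes or of 39 Hox genes. The last 3 of these lists consist of short genes, with median lengths of 7.01, 5.64 and 4.06 kb, and the acetylation list has a median length of 46.4 kb.

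The markers of cell types were used to check what the hearts' clusters lie at. No cluster overlapped any of 12 cardiomyocyte markers, 10 fibroblast markers, 10 endothelial markers or 12 liver markers. One marker each was overlapped of 9 for macrophages (Csf1r), of 8 for smooth muscle (Mylk) and of 10 for neurons (Rbfox3). Csf1r held 3 mdx HRTΔIKKβ regions at 5.44, 7.04 and 6.24 normalized tags. Mylk held 7 regions in 257 kb and Rbfox3 16 in 422 kb. The cardiomyocyte markers had a median length of 12 kb, the fibroblast markers 33.3 kb, the endothelial markers 93.8 kb and the liver markers 10.3 kb. In total length the cardiomyocyte markers covered 995 kb and the endothelial markers 998 kb. Both lists held 0 clustered regions per 100 kb, against 0.314 over all protein-coding genes.

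A region of any class lay within 10 kb of a start for 13.6% of protein-coding genes in mdx IKKβf/f and for 23.3% in mdx HRTΔIKKβ. For cardiomyocyte markers this was 1 of 12 in mdx IKKβf/f and 3 of 12 in mdx HRTΔIKKβ. For neuron markers it was 4 of 10 and 5 of 10, for fibroblast markers 3 of 10 and 3 of 10, for endothelial markers 1 of 10 and 3 of 10, for macrophage markers 2 of 9 and 2 of 9, for smooth muscle markers 3 of 8 and 2 of 8, and for liver markers 1 of 12 and 4 of 12. The counts for cardiomyocyte markers were near the shares of all protein-coding genes, and the clusters were given no cell type.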

How the data were processed

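H3K27ac ChIP-seq of whole mdx hearts at 7 months was analysed for both genotypes, with 1 ChIP and 1 input library each. The authors mapped unique reads to mm9 with Bowtie2 and called regions with HOMER findPeaks against the matched input. Versions were not given in the sources used here. Per the file headers, the regions had a size of 500 bp, a minimum distance of 1000 bp and at least 4-fold more tags than input. A local filter over 10000 bp, which could act on neighbouring regions, removed 0 regions in both lists. The deposited normalized tag count is a signal value per 10000000 tags, the deposited input count is the signal as input tags in the region, the deposited fold is the ratio of ChIP tags scaled to the input's depth over input tags, the deposited score is the caller's own, and the deposited p-value columns were not used. Library totals were 57852347 and 62458751 tags. The 72 regions on other chromosomes were left out.

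Regions were merged where they overlapped by 1 bp and chained at gaps of at most 12.5 kb, in Python 3.11.15 with pandas 2.3.3. Merging and chaining were checked on simulated regions. Genes were those of GENCODE vM1 on NCBIM37, whose chromosome lengths hold all regions. A promoter was within 3 kb of an annotated start, and a gene was overlapped where the span of a cluster touched its body. Intervals are 95% Wilson intervals of counts. The named clusters were the 12 with most merged regions, the 5 with most of each genotype alone and those with 2 or more shared regions. The named genes were those they overlapped, the 10 with most clustered regions and up to 6 per list. The members and lists were chosen with earlier results of these data known. A few of the genes this rule names are not reported here.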

Additional observations from a re-analysis of the deposited data

How the results depend on the processing

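The number of clusters depended on the widest gap, the smallest chain and the regions admitted. Against 1673 clusters with 17.2% of merged regions, there were 463 (4.22%) at gaps of at most 5 kb, 3040 (36.5%) at 25 kb, 597 (8.0%) with chains of 4 or more, 18 (0.833%) with regions at least 8-fold over input, 72 (3.07%) with scores at least 1.2 times the lowest of their list, 829 (11.6%) with equal numbers of regions per genotype, 131 (3.33%) in the mdx IKKβf/f list alone and 592 (8.65%) in the mdx HRTΔIKKβ list alone. Every stricter list holds fewer regions, which widens the gaps by construction.

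The genotype of origin moved less in absolute terms, but at some settings it moved away from the share of all regions. The mdx HRTΔIKKβ share of clustered regions, 63.6% beside 64.7% of all regions, was 61.3% (58.8 to 63.7) at 5 kb, beside the same 64.7%. It was 61.8% (48.6 to 73.5) at 8-fold, with 18 clusters, beside 71.9% of all regions so filtered, the widest such distance. Equal numbers were reached by keeping the mdx HRTΔIKKβ regions of highest score. The share was then 51.4%, beside 50% of all regions by construction. Under the other alternatives the share stayed within its interval. The share of clusters with both genotypes, 77.0%, was 81.6% at 5 kb, 86.3% with chains of 4 or more, 72.2% at the stricter score and 81.9% with equal numbers. Counting the 10 kb before each start raised the overlapped protein-coding genes from 4.54% to 5.15%, and counting all annotated genes raised the clusters that overlap a gene from 57.4% to 62.5%. The cause was not tested. With 1 library per genotype no library could be left out, and no paired analysis was possible because no test was run. Depth limits the lists to regions with scores of at least 29 or 30.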
